A study of Mus musculus with 4 samples.

Results

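The D-type cyclins (Ccnd1, Ccnd2, Ccnd3), the G1 kinases (Cdk2, Cdk4, Cdk6) and the retinoblastoma family (Rb1, Rbl1, Rbl2) were followed as 9 genes, chosen by their symbols from the 28692 genes listed for each library. All 9 were detected in all 4 libraries. The study asked how aging changes hematopoietic stem and progenitor cells (HSPCs), and sorted Lin- Sca1+ cKit+ Flt3- cells from the bone marrow of male C57BL/6-CD45.2 mice for droplet-based 3′ single-cell RNA-seq. The young pools came from mice of 2 to 3 months (2 mice in pool A and 3 in pool B) and the aged pools from mice of 17 to 18 months (3 mice in pool A and 2 in pool B). The labels name no genetic change and no treatment. Each pool is 1 library of mixed animals, so the pool is the replicate and the spread between single mice was not measured. Pools A were captured on the HalioDX platform and pools B on the TGML platform, 1 pool of each age on each. The paper describes A and B as independent batches of mice, run at different facilities. Platform and batch of mice thus go together here. The paper reports more reads per cell for aged pool A and young pool B than for the other pools. Where 4 values are listed, they follow the order young A, young B, aged A, aged B.

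D-type cyclins are made in response to growth signals and bind Cdk4 or Cdk6, and the complexes phosphorylate the Rb family proteins. Unphosphorylated Rb, p107 (the product of Rbl1) and p130 (the product of Rbl2) hold E2F factors in check, p130 mainly in resting cells, and their phosphorylation, completed by Cdk2 with E-type cyclins, releases the genes of S phase. In hematopoietic stem cells (HSCs), most of which rest, entry into and exit from quiescence pass through this circuit.

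On GRCm38 with GENCODE vM21, Ccnd1 lies at chr7:144929931-144939925 on the minus strand, Ccnd2 at chr6:127125162-127152193 on the minus strand and Ccnd3 at chr17:47505051-47599691 on the plus strand. The kinase genes are at chr10:128697939-128705031 on the minus strand (Cdk2), chr10:127063534-127067920 on the plus strand (Cdk4) and chr5:3341485-3531008 on the plus strand (Cdk6). Rb1 lies at chr14:73183673-73325822 and Rbl1 at chr2:157145893-157204534, both on the minus strand, and Rbl2 at chr8:91070057-91123844 on the plus strand.

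RefSeq promoter sequences on GRCm38.p6 were matched for 6 of the 9 genes (7 promoters, since Ccnd3 has 2). The 250 bases before the transcription start were searched on both strands for 4 E2F words (TTTCCCGC, TTTCGCGC, TTTGCCGC and TTTGGCGC) and for the E-box CACGTG, the word bound by Myc, among other factors. Of 32851 promoters of the same length, 1.86% held an E2F word, 6.02% held at least 1 E-box and 0.0213% held 4 or more. Among the members, Rbl1 and Cdk2 held 1 E2F word each, Cdk4 held 4 E-boxes and Cdk6 held 1, while the promoters of Ccnd3 and Rbl2 held none of these words. The promoters shown are the 2 with an E2F word, the one with 4 E-boxes and, for contrast with its relative Rbl1, that of Rbl2, and capitals mark the words searched. The Rbl1 word lies 18 bases before the start and that of Cdk2, which reads as GCGGGAAA on this strand, 140 bases before it. The sequences are at chr2:157204535-157204784 (minus strand, Rbl1), chr10:128705052-128705301 (minus strand, Cdk2), chr10:127063285-127063534 (plus strand, Cdk4) and chr8:91069807-91070056 (plus strand, Rbl2), and a match of letters does not show that a factor binds there.
Rbl1: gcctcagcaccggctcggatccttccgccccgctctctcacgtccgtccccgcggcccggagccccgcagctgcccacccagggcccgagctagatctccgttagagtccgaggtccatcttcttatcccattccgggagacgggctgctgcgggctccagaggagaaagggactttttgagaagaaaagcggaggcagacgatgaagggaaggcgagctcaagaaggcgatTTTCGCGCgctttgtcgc
Cdk2: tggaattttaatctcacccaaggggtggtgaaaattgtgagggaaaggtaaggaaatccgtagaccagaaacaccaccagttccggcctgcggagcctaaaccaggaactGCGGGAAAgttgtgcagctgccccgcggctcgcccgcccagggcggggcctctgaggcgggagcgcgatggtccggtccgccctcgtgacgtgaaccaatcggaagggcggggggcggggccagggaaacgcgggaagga
Cdk4: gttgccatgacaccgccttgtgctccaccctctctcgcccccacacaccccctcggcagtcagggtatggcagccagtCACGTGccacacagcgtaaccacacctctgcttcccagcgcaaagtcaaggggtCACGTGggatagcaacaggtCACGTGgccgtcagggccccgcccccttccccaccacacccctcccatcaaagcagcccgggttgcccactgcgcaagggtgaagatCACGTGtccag
Rbl2: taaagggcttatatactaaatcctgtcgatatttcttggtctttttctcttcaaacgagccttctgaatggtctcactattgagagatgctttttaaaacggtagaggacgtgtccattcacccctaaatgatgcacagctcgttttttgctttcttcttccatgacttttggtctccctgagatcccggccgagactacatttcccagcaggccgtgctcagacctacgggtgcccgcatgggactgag

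After cells far from the mean depth of their pool were dropped, 14915 of 15566 barcodes stayed, with a total of 16399999 to 36446168 UMIs (unique molecular identifiers, each counting 1 captured transcript) per pool and a median of 5674 to 6719 UMIs per cell. Kit and Ly6a, which encode the sorting antigens cKit and Sca1, were at 71.7 to 164 and 164 to 355 CPM (UMIs of the gene per 1000000 UMIs of the summed cells). Flt3, the antigen sorted against, was at 48.0 CPM in young pool A and at 2.40 to 15.0 in the others. Of lineage genes, Cd3e and Ly6g stayed at or under 0.241 CPM and Itgam reached 28.0. The pools shared 115 cell barcodes, 10 to 29 per pair of pools. For 2 pools (young B, aged A) a free-text description gives the opposite age, and age was taken from the titles and source names, which give the same age.

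Ccnd1 was the only member with an age difference past the threshold in whole pools. It stood at 26.5 and 24.1 CPM in the young pools and at 59.3 and 57.3 in the aged ones. Both aged values lay above both young values, and the log2 fold change was 1.15 (SE 0.17), with an adjusted p = 0.0461. The test was edgeR's quasi-likelihood test over all genes on summed UMIs, blocked by platform, with Benjamini-Hochberg adjusted p under 0.05 as the threshold, and 2.03% of 13555 genes passed (275 genes, 217 of them higher in aged pools). The call was lost with total-count scaling (adjusted p = 0.0628), without the block (adjusted p = 0.248) and without any 1 of the 4 pools (adjusted p of 0.398 to 0.67), while the log2 fold change stayed between 1.01 and 1.29. In sums over whole pools, a change in the share of cells of 1 state and a change of RNA per cell cannot be told apart.

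The other D-type cyclins did not pass. Ccnd2 stood at 419 and 452 CPM in young and at 416 and 442 in aged pools, so the ages overlapped (log2 fold change -0.07, SE 0.20, adjusted p = 0.909). Ccnd3 stood at 165 and 166 in young and at 184 and 189 in aged pools, without overlap (log2 fold change 0.12, SE 0.18, adjusted p = 0.813).

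Of the kinases, Cdk6 stood at 213 and 182 CPM in young and at 162 and 124 in aged pools. The aged pool was lower on both platforms, but the log2 fold change of -0.53 (SE 0.17) did not pass the test (adjusted p = 0.236). Cdk4 stood at 417 and 409.9 in young and at 274 and 350.1 in aged pools (log2 fold change -0.47, SE 0.23, adjusted p = 0.421). Cdk2 stood at 50.9 and 31.8 in young and at 57.5 and 23.3 in aged pools, so that pool A lay above pool B at both ages. Its age difference was 0.17 on platform A and -0.44 on platform B (log2 of CPM plus 1), and the fitted log2 fold change was -0.19, SE 0.19 (adjusted p = 0.722).

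In the Rb family, Rbl1 stood at 17.6 and 14.1 CPM in young and at 14.8 and 9.19 in aged pools (log2 fold change -0.48, SE 0.18, adjusted p = 0.296). Rbl2 stood at 17.6 and 11.3 in young and at 34.4 and 12.2 in aged pools, with aged pool A far above the rest (log2 fold change 0.50, SE 0.23, adjusted p = 0.402). Rb1 was the most thinly counted member, with 679 UMIs in all, and stood at 5.76 and 5.06 in young and at 11.5 and 4.39 in aged pools (log2 fold change 0.37, SE 0.31, adjusted p = 0.659). Aged pool A was again the high one, and the age difference was 0.89 on platform A and -0.17 on platform B. The median log2 fold change of the 9 members was -0.07, beside 0.01 over all genes tested. The rest of the G1/S circuit was taken as 34 other genes. They include E-type and A-type cyclins, E2F factors, kinase inhibitors and subunits of the complexes that Rb family proteins form. In whole pools 32 were tested and 0 passed, with a median log2 fold change of -0.17. Of them, 9 had an unadjusted p under 0.05 in edgeR, beside 2175 of all 13555 genes. DESeq2 called 2 of them, beside 543 of all 13555 genes.

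**Figure D1:**
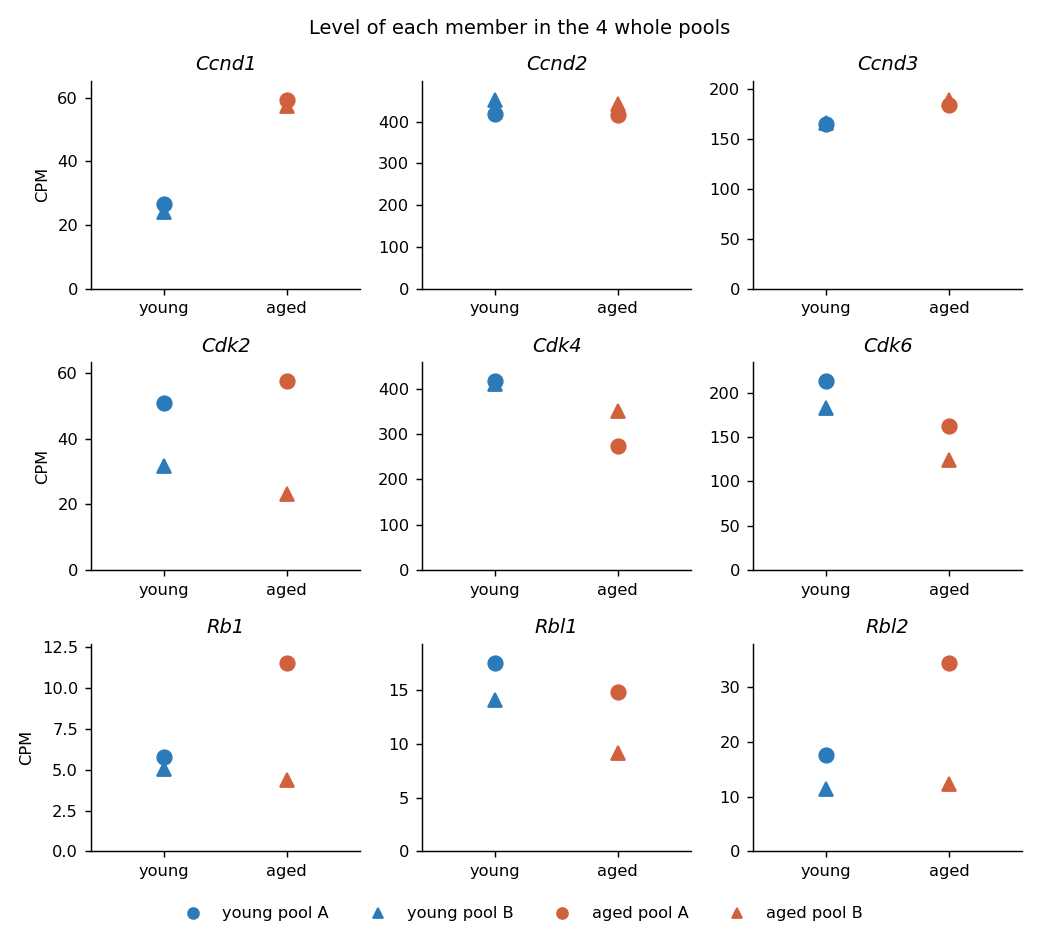
Level of each of the 9 members in the 4 whole pools, in CPM (vertical axes start at 0), with young pools in blue, aged pools in orange, circles for platform A and triangles for platform B. Ccnd1 is at 24.1 to 26.5 in young and 57.3 to 59.3 in aged pools, while Cdk2, Rb1 and Rbl2 are highest in aged pool A.

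To follow the members through the cell cycle, cells thinned to 3000 UMIs were gated by UMIs of 20 S phase and 20 G2/M genes, none of them a member. Mitotic cells held at least 5 G2/M UMIs, replicating cells at least 6 S phase UMIs and fewer than 5 G2/M UMIs, and non-cycling cells at most 1 S phase UMI and 0 G2/M UMIs. Since only S phase and G2/M genes were read, the non-cycling gate does not tell resting cells from cells in G1. These gates are ranges of a count and not cell types, and of 14685 cells 4637 were non-cycling, 6823 intermediate, 1955 replicating and 1270 mitotic. By pool, 18.5%, 16.4%, 10.0% and 7.64% of cells were replicating and 12.1%, 8.52%, 5.36% and 6.89% mitotic. With 2 pools against 2, the exact two-sided permutation p cannot go below 0.33, which both shares reached.

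All 3 kinases rose from non-cycling to replicating cells. Cdk4 went from 309, 279, 232 and 283 CPM to 563, 606, 450.3 and 599, a log2 fold change of 1.05 (SE 0.06, adjusted p = 1.60e-08). Cdk2, the kinase of the E-type and A-type cyclins, went from 35.4, 20.9, 44.5 and 17.1 to 68.9, 49.6, 103 and 40.1 (log2 fold change 1.19, SE 0.07, adjusted p = 6.37e-08). Cdk6 went from 142, 133, 102 and 91.4 to 284, 244, 346 and 201 (log2 fold change 1.24, SE 0.10, adjusted p = 6.60e-07). Each rise was seen in 4 of 4 pools. These gates also differed in stem and progenitor markers. The summed HSC list (10 genes, described below) stood at 1107, 1132, 1729 and 1651 CPM in non-cycling cells. In replicating cells it stood at 450, 416, 725 and 658. The progenitor list (5 genes) went from 1129, 1091, 318 and 221 to 1795, 1637, 1564 and 717. The part of these differences in the changes of the members was not tested. Of the 11075 genes tested between these gates, 50.0% passed, so a call by itself sets the members apart little, and 6 of the 9 members rose and 2 fell.

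Rbl1 had the largest fitted change of the members in this comparison, and its relative Rbl2 moved the opposite way. Rbl1 stood at 7.88, 7.35, 8.54 and 4.66 CPM in non-cycling and at 25.9, 19.8, 32.2 and 21.7 in replicating cells (log2 fold change 1.89, SE 0.14, adjusted p = 2.72e-07). No replicating value overlapped a non-cycling one. Rbl2 fell in all 4 pools, from 22.2, 14.5, 37.8 and 13.8 to 14.5, 7.72, 21.8 and 7.03 (log2 fold change -0.73, SE 0.12, adjusted p = 2.98e-04). Rb1 did not pass the test (log2 fold change 0.36, SE 0.19, adjusted p = 0.131), although it was 0.07 to 0.47 higher in the replicating cells of each pool.

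The D-type cyclins moved less in this comparison. Ccnd2 went from 509, 534, 449 and 491 CPM to 394, 404, 345 and 371, lower in 4 of 4 pools (log2 fold change -0.34, SE 0.05, adjusted p = 6.31e-05). Ccnd1 rose by 0.31 (SE 0.09) on the log2 scale with an adjusted p = 0.00957, and Ccnd3 by 0.26 (SE 0.07) with an adjusted p = 0.00693, both in 4 of 4 pools but by as little as 0.07 and 0.05 in aged pool A. In sums of the thinned cells, Ccnd1 was at 0.29 and lost its call (adjusted p = 0.0792).

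In mitotic cells the cyclins separated. Ccnd2 fell to 179, 198, 159.7 and 179 CPM, from the non-cycling levels above (log2 fold change -1.46, SE 0.06, adjusted p = 4.32e-10). Ccnd1 fell from 27.6, 21.8, 61.6 and 62.0 to 10.2, 9.88, 18.9 and 22.7 (log2 fold change -1.45, SE 0.11, adjusted p = 2.33e-07). Ccnd3 did not share this fall, being 0.03 to 0.33 higher in the mitotic cells of each pool (log2 fold change 0.19, SE 0.07, adjusted p = 0.0418, and adjusted p = 0.0538 in thinned sums). The kinases stayed above their non-cycling level, with log2 fold changes of 1.29 (SE 0.13) for Cdk6, 0.95 (SE 0.09) for Cdk2 and 0.83 (SE 0.06) for Cdk4.

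Rbl1 stood at 31.7, 29.6, 41.5 and 26.2 CPM in mitotic cells, the highest of the cycle gates in each pool (log2 fold change 2.22, SE 0.13, adjusted p = 1.75e-08). Rbl2 was below its non-cycling level in every pool, though by only 0.07 in aged pool A against 0.48 to 0.77 in the others (log2 fold change -0.45, SE 0.14, adjusted p = 0.0158, and adjusted p = 0.0755 in thinned sums). Rb1 did not pass (log2 fold change 0.45, SE 0.21, adjusted p = 0.0846). In all, 5 members rose and 3 fell between non-cycling and mitotic cells, where 51.6% of 11036 genes passed. Mitotic and replicating cells also held more RNA, with medians of 9666 to 12298.5 and 8088.5 to 9691 UMIs per cell against 5381 to 6297 in non-cycling cells, which the scaling to CPM takes out of the levels.

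**Figure D2:**
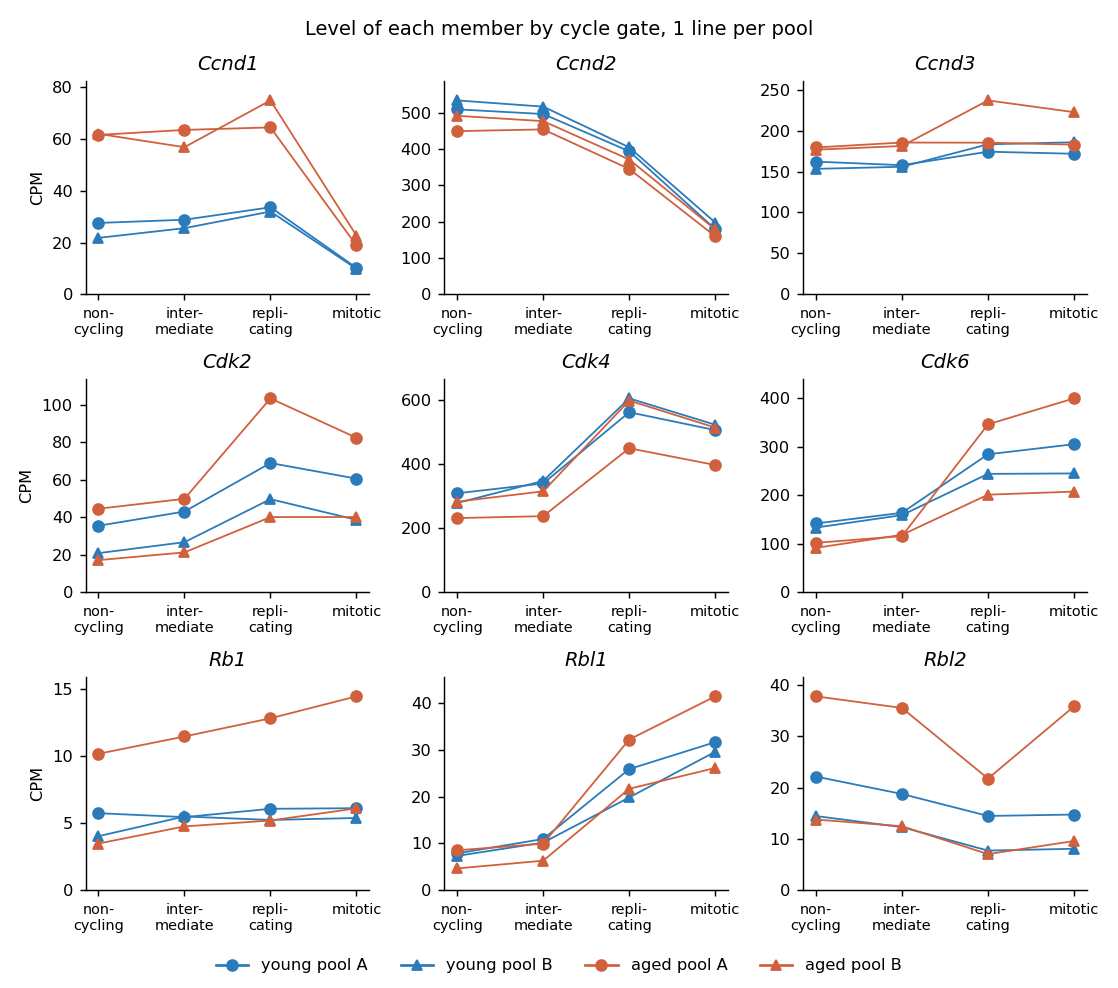
Level of each member in non-cycling, intermediate, replicating and mitotic cells, in CPM (vertical axes start at 0), with 1 line per pool (blue young, orange aged, circles platform A, triangles platform B). Ccnd1 and Ccnd2 are lower in mitotic than in non-cycling cells of each pool, Cdk2, Cdk4, Cdk6 and Rbl1 are higher in replicating than in non-cycling cells of each pool, and Rbl2 is lower.

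The rest of the G1/S circuit moved widely between these gates. Of its 31 genes tested between replicating and non-cycling cells, 19 rose and 5 fell, with a median log2 fold change of 0.61 beside -0.02 over all genes. All 3 E-type and A-type cyclins rose, with log2 fold changes of 4.26 (SE 0.23) for Ccne2 and 3.71 (SE 0.28) for Ccne1, as did 7 of 8 E2F factors, among them the activator E2f1, at 3.60 (SE 0.15), and the late repressors E2f8, at 3.94 (SE 0.32), and E2f7, at 3.47 (SE 0.34). Mybl2, which joins the MuvB complex in S phase, rose most, at 4.95 (SE 0.25). The genes that fell, named after their values were seen, were the inhibitors Cdkn1c (-1.25), Cdkn1b (-0.58) and Cdkn2d (-0.49), E2f5 (-1.14), an E2F that p130 binds, and Lin37 (-0.18), a MuvB subunit. In mitotic cells 19 of 31 rose and 3 fell (E2f5, Cdkn1c and Myc). Ccna2, at 6.34 (SE 0.19), and Cdk1, at 5.10 (SE 0.22), rose most.

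The make-up of each family changed between gates. A 3′ UMI is counted once per captured transcript whatever its length, but different 3′ ends may be captured unequally, so only changes of a share between gates are read. Ccnd2 gave 65.1% to 75.3% of D-type cyclin UMIs in non-cycling cells and 42.2% to 50.2% in mitotic cells of the 4 pools, and Ccnd3 gave 21.6% to 26.0% and 47.3% to 52.5%. Neither gene's ranges overlapped. Within the Rb family, Rbl1 gave 15.1% to 28.4% of UMIs in non-cycling cells and 48.3% to 64.0% in replicating cells, and Rbl2 gave 56.0% to 66.9% and 20.7% to 32.6%. The share of Rb1 was 15.6% to 18.0% and 13.1% to 19.2% in the same gates. Among the kinases, Cdk4 gave 61.3% to 72.3% in non-cycling and 50.1% to 71.3% in replicating cells, ranges that overlap.

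**Figure D3:**
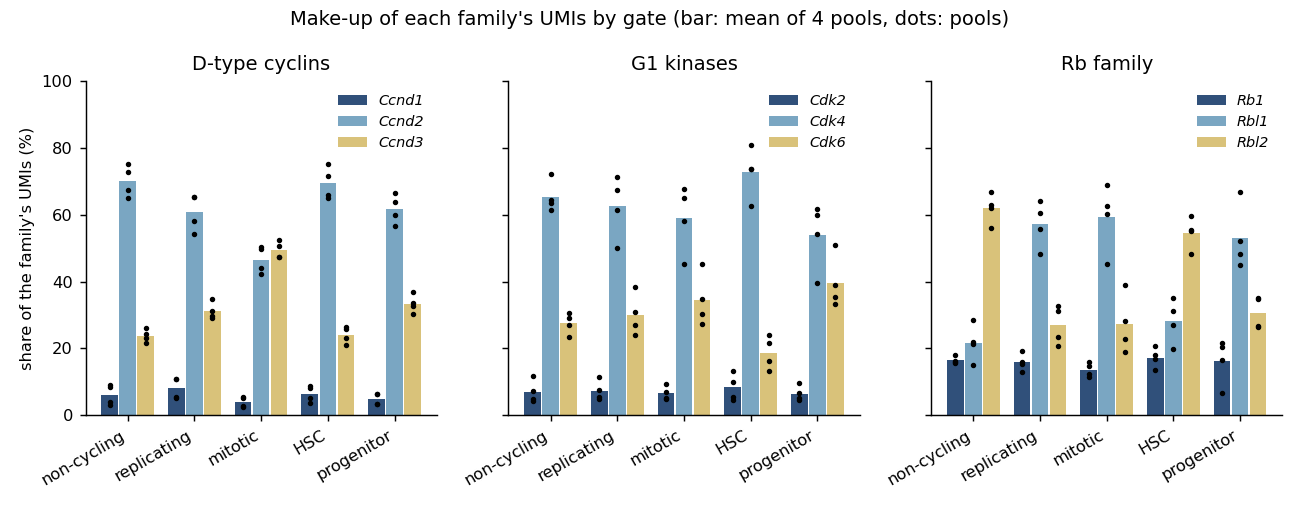
Share of each family's UMIs (in percent, axes from 0 to 100) given by its 3 members in each gate, with bars for the mean of the 4 pools and dots for the pools. Ccnd2 goes from 65.1% to 75.3% in non-cycling cells to 42.2% to 50.2% in mitotic cells. From non-cycling to replicating cells the share of Rbl1 goes up and that of Rbl2 goes down.

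The stem and progenitor ends of the sorted cells were compared next, again with gates that use no member. HSC-gated cells held at least 3 UMIs of 10 HSC genes (such as Procr, Slamf1 and Hlf) and 0 of 5 progenitor genes (such as Cd34 and Cd48), and progenitor-gated cells at least 2 progenitor UMIs and at most 1 HSC UMI. The HSC gate held 3849 cells and the progenitor gate 2610. Cdk6 showed the largest difference of the members. It stood at 66.7, 48.4, 91.7 and 89.2 CPM in HSC-gated cells and at 342, 281, 472 and 288 in progenitor-gated cells, a log2 fold change of -2.27 (SE 0.11, adjusted p = 2.89e-10). All HSC-gated values lay below all progenitor-gated ones, and Cdk6 gave 13.4% to 24.1% of kinase UMIs in the HSC gate and 33.3% to 50.8% in the progenitor gate. Cdk4 (log2 fold change -0.75, SE 0.06, adjusted p = 7.95e-08) and Cdk2 (log2 fold change -0.86, SE 0.12, adjusted p = 1.75e-05) were also lower in the HSC gate.

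Ccnd1 was higher in HSC-gated cells, at 41.7, 29.7, 60.2 and 59.5 CPM against 16.9, 17.5, 25.3 and 30.7 (log2 fold change 1.04, SE 0.12, adjusted p = 2.99e-06). Ccnd2 was higher as well, at 571, 593, 454 and 475 against 309, 351, 238 and 272 (log2 fold change 0.79, SE 0.06, adjusted p = 4.18e-08). Ccnd3 did not pass (log2 fold change 0.14, SE 0.08, adjusted p = 0.157). Rbl2 was higher in the HSC gate (log2 fold change 0.80, SE 0.15, adjusted p = 3.90e-04) and Rbl1 lower (log2 fold change -0.97, SE 0.19, adjusted p = 7.13e-04), while Rb1 did not pass (log2 fold change 0.04, SE 0.23, adjusted p = 0.892). Thus 3 members were higher and 4 lower, where 47.4% of 10878 genes passed.

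HSC-gated cells also held fewer S phase UMIs (602 to 911 CPM, against 1939 to 2320 in progenitor-gated cells). Lineage markers differed as well. The summed mast list stood at 21.7 to 167 CPM in HSC-gated and at 5355 to 9288 in progenitor-gated cells, the neutrophil list at 538 to 1392 and 2306 to 6139, and the erythroid list at 20.9 to 67.7 and 289 to 801, and their part in the differences of the members was not tested. Without replicating and mitotic cells, Cdk6 was at -2.20 (SE 0.10) and Ccnd1 at 1.26 (SE 0.15). Cdk4 was at -0.38 (SE 0.07) and Cdk2 at -0.60 (SE 0.15), both past the test, Rbl1 was at -0.43 and lost its call (adjusted p = 0.265), and Ccnd3 passed at 0.32 (SE 0.08). In that setting 2972 of 10117 genes passed. With all cells, 3 of 31 other G1/S genes were higher in the HSC gate (Cdkn1c, E2f5 and Fbxw7) and 17 lower, with a median log2 fold change of -0.42, and without replicating and mitotic cells 3 of 25 were higher and 5 lower, with a median of -0.025. Cdkn1c, which encodes the inhibitor p57, was higher with all cells, at 2.63 (SE 0.14), and E2f8, at -3.10 (SE 0.22), Mybl2, at -2.57 (SE 0.26), and Ccna2, at -2.56 (SE 0.13), were lower.

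The 5 lineage gates took cells with at least 3 UMIs of 1 lineage list only, each set against cells with fewer than 3 of every list (ungated cells). A B cell list was counted too, so cells with 3 or more of its UMIs were in no lineage gate and not among ungated cells. Cdk6 was higher in erythroid-gated cells, at 524, 318, 590.2 and 397 CPM against 165, 160.3, 142 and 126 in ungated cells (log2 fold change 1.68, SE 0.13, adjusted p = 4.44e-11). All 3 D-type cyclins were lower in this gate, with log2 fold changes of -1.67 (SE 0.23) for Ccnd1, which had 5 to 11 UMIs per pool there, -0.55 (SE 0.10) for Ccnd2 and -0.36 (SE 0.13) for Ccnd3. Cdk4 was higher (log2 fold change 0.29, SE 0.10, adjusted p = 0.0199). Cdk2, Rb1, Rbl1 and Rbl2 did not pass, and Rbl2 had 0 UMIs in young pool B, which allows up to 5.55 CPM (3 counts). The erythroid gate held 351 cells, and 39.9% of 10687 genes passed. Without replicating and mitotic cells the log2 fold changes were 2.32 (SE 0.12) for Cdk6 and -2.40 (SE 0.39) for Ccnd1. Ccnd2 was at -0.47 (SE 0.13) and Ccnd3 at -0.59 (SE 0.16), and all of these passed the test. Cdk4 was at 0.27 (SE 0.13) and lost its call (adjusted p = 0.109). Of the G1/S list, 9 of 31 were higher in erythroid-gated cells with all cells counted, among them Ccne1 (2.43) and E2f8 (2.27), and 2 lower, Cdkn1c (-3.48) and E2f7 (-1.45). Without replicating and mitotic cells, 3 of 25 were higher and 1 lower, with a median log2 fold change of -0.004 (0.13 with all cells). In that setting 2627 of 10115 genes passed.

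In megakaryocyte-gated cells 3 members passed, all of them kinases. Cdk6 stood at 282, 169.8, 327 and 259.7 CPM (log2 fold change 0.85, SE 0.11, adjusted p = 1.28e-05), but in young pool B it was only 0.08 above ungated cells, against 0.77 to 1.19 in the other pools. Cdk2 (log2 fold change 0.40, SE 0.13, adjusted p = 0.0363) and Cdk4 (log2 fold change 0.26, SE 0.07, adjusted p = 0.0110) were higher too. Both calls were lost when replicating and mitotic cells were left out. In that setting Cdk4 was at 0.25 (SE 0.09, adjusted p = 0.136) and Cdk2 at 0.28 (SE 0.205, adjusted p = 0.648). The D-type cyclins and the Rb family did not pass. Ccnd1, for example, stood at 43.7, 42.0, 42.8 and 66.3 in this gate and at 29.4, 26.0, 63.6 and 58.9 in ungated cells, which overlap. The gate held 461 cells, 14.4% of 10858 genes passed, and 6 of 31 G1/S genes were higher and 2 lower (E2f5 and Cdkn1c), against 1 of 25 higher and 0 lower without replicating and mitotic cells. In the latter setting 299 of 10394 genes passed. The difference between the erythroid and megakaryocyte gates was not tested.

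The mast gate held 125 cells, and 3 pools had the 10 cells needed to be summed. Cells with 3 or more UMIs of another list were left out, and the gate was not the richest in mast UMIs, with a mean of 12.7, 14.3 and 4.78 per thinned cell in those pools (median 3, 5 and 3), against 17.8, 20.6 and 27.8 in progenitor-gated cells. Cdk6 was higher there, at 243, 316 and 380.3 CPM (young A, young B, aged A), from 157, 28 and 41 UMIs (log2 fold change 0.84, SE 0.19, adjusted p = 9.19e-04), where 1.22% of 10746 genes passed. The call was lost without aged pool A (log2 fold change 0.62, adjusted p = 0.388), with looser gates, in thinned sums, without the block and without replicating and mitotic cells. In the lymphoid gate only the young pools could be summed (27 and 14 cells), 0 members passed in edgeR or DESeq2 and 0 had an unadjusted p under 0.05 (910 of all 10825 genes had), and 2.26% of genes passed. Rb1 had 0 UMIs in that gate, which allows up to 19.1 and 41.4 CPM (3 counts).

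The neutrophil gate was not selective at 3 UMIs, since it took 6324 cells (43.1%), which were 23.9%, 33.2%, 54.1% and 63.9% of the pools. Its list is led by Prtn3, a granule protease gene that stood at 501 and 631 CPM in young and at 966 and 1231 in aged whole pools, while Mpo stood at 310 and 246 in young and at 248 and 72.3 in aged pools. In that gate 0 members passed in edgeR or DESeq2 (2 had an unadjusted p under 0.05, as had 1907 of 12033 genes), beside 3.30% of genes. With a threshold of 12 UMIs, chosen after these values were seen, Cdk6 was higher at 1.29 (SE 0.12) and Cdk4 at 0.51 (SE 0.11), and Ccnd2, at -0.71 (SE 0.11), Ccnd1, at -0.60 (SE 0.23), and Ccnd3, at -0.40 (SE 0.14), were lower, where 24.2% of 11470 genes passed. Cdk4 and Ccnd2 had the opposite sign in the gate at 3 UMIs. With the threshold at 12, ungated cells also took in cells with 3 or more but fewer than 12 neutrophil UMIs. The reference cells thus differ between the thresholds.

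**Figure D4:**
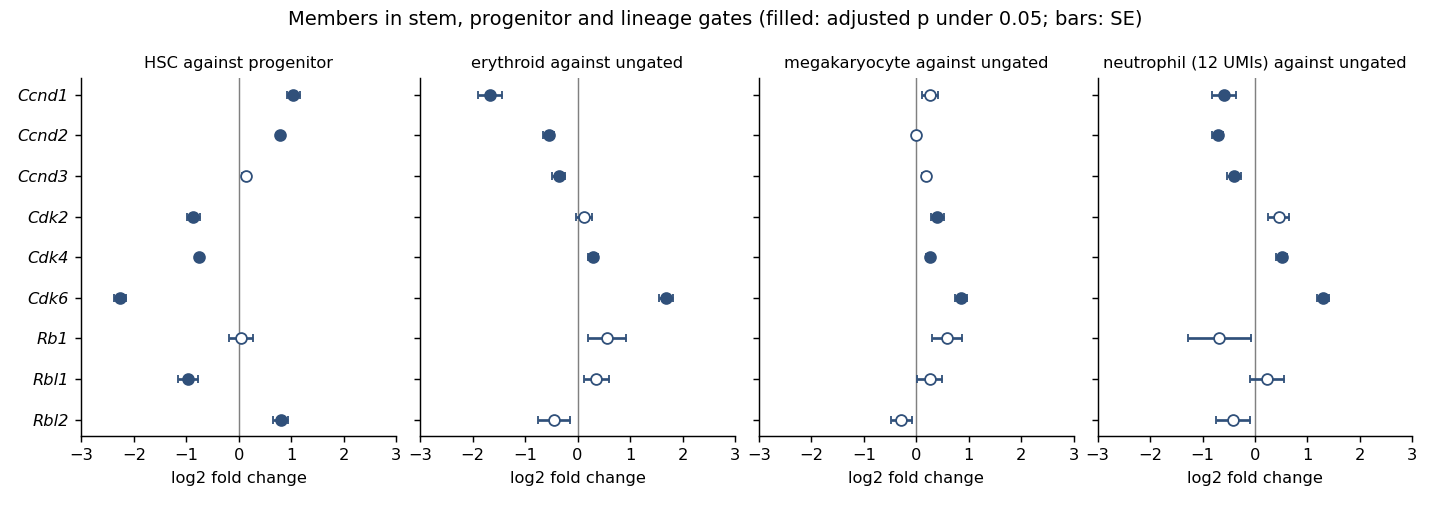
Fitted log2 fold change of each member with its SE in HSC-gated against progenitor-gated cells and in erythroid, megakaryocyte and neutrophil gates (the last at 12 UMIs) against ungated cells, with filled points for an adjusted p under 0.05. Cdk6 is at -2.27 in the HSC gate and at 1.68, 0.85 and 1.29 in the lineage gates, and all 3 cyclins are below 0 in the erythroid and neutrophil gates. In the neutrophil panel the ungated cells hold up to, but not including, 12 neutrophil UMIs.

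Age was then compared within gates, because the gates held different shares of young and aged cells. By pool, the HSC gate held 11.3%, 14.6%, 36.2% and 43.4% of cells and the progenitor gate 29.4%, 28.3%, 7.99% and 5.08%. The summed HSC list, with 10 of 10 genes detected, stood at 750 and 788 CPM in young and at 1487 and 1368 in aged whole pools, and the progenitor list, with 5 of 5 detected, at 1488 and 1361 against 593 and 361. The part of these shifts in the whole-pool differences of the members was not tested. Within gates these lists moved with age too. In non-cycling cells the HSC list stood at 1107 and 1132 CPM in young and at 1729 and 1651 in aged pools, and the progenitor list at 1129 and 1091 against 318 and 221. In HSC-gated cells the HSC list stood at 1496 and 1571 against 1868 and 1723.

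Ccnd1 was higher in both aged pools than in either young pool within each of the 4 gates compared. With 2 pools against 2, such a separation alone has an exact two-sided permutation p of 0.33 at the lowest. Other separations of the ages named here have the same limit. The HSC and progenitor gates also share cells with the cycle gates. In non-cycling cells Ccnd1 stood at 27.6 and 21.8 CPM in young and at 61.6 and 62.0 in aged pools (log2 fold change 1.30, SE 0.20, adjusted p = 0.0358), where 2.18% of 11486 genes passed. The part of the list shifts within that gate was not tested. That call was lost without the block (adjusted p = 0.243), without the deepest cells (adjusted p = 0.0874) and without any 1 pool (adjusted p of 0.243 to 0.681). In replicating cells it stood at 33.6 and 32.0 against 64.5 and 74.9 and did not pass (log2 fold change 1.02, SE 0.20, adjusted p = 0.333), where 0.123% of 10588 genes did. In HSC-gated cells it stood at 41.7 and 29.7 against 60.2 and 59.5 (log2 fold change 0.70, SE 0.21, adjusted p = 0.418), and in progenitor-gated cells at 16.9 and 17.5 against 25.3 and 30.7 (log2 fold change 0.69, SE 0.23, adjusted p = 0.680). In each of these gates 0.342% of genes passed (39 of 11410 and 36 of 10511), and 0 members in edgeR or DESeq2 (at an unadjusted p under 0.05 in edgeR, 2 members and 955 genes in the HSC gate and 1 member and 615 genes in the progenitor gate).

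Cdk6 had opposite signs in whole pools and in the HSC gate, and neither value passed the test. In HSC-gated cells the young pools stood at 66.7 and 48.4 CPM and the aged pools at 91.7 and 89.2, without overlap (log2 fold change 0.62, SE 0.20, adjusted p = 0.468). Its log2 fold change was -0.54 (SE 0.17) in non-cycling cells, -0.06 (SE 0.21) in replicating cells and 0.24 (SE 0.22) in progenitor-gated cells. The age difference of Cdk6 was higher by 0.45 (SE 0.16) in replicating than in non-cycling cells (adjusted p = 0.324) and by 0.40 (SE 0.18) in HSC-gated than in progenitor-gated cells (adjusted p = 0.441). For Rbl1 the second of these differences was -0.74, SE 0.32 (adjusted p = 0.416). In these tests of the difference 0 members passed in edgeR or DESeq2 (at an unadjusted p under 0.05 in edgeR, 1 member and 842 genes between the cycle gates and 2 members and 1183 genes between the HSC and progenitor gates), beside 0.987% of 11757 and 1.02% of 11675 genes.

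Ccnd2 was lower in both aged pools than in either young one within each of the 4 gates, as in HSC-gated cells (571 and 593 against 454 and 475 CPM). Its log2 fold change was -0.18 in non-cycling, -0.22 in replicating, -0.37 in HSC-gated and -0.38 in progenitor-gated cells. None of these passed (edgeR adjusted p of 0.768 to 0.973). Of the G1/S list, Cdkn2c, which encodes p18, an inhibitor of Cdk4 and Cdk6, passed in 2 of the 4 gates. It was higher with age in non-cycling cells (log2 fold change 1.66, SE 0.23, adjusted p = 0.0294) and in HSC-gated cells (log2 fold change 2.42, SE 0.23, adjusted p = 0.0245), where it stood at 8.63 and 6.60 CPM in young and at 48.4 and 36.2 in aged pools. Both calls were lost without the block and without either aged pool, and that in non-cycling cells also without the deepest cells. Its age difference was larger in the HSC than in the progenitor gate, by 1.71 (SE 0.28) with an adjusted p = 0.00333. That call was lost without young pool A and in DESeq2. Between the cycle gates Cdk1 was the 1 gene of the list that passed (log2 difference 1.08, SE 0.27, adjusted p = 0.0375), and the call was lost in DESeq2, with total-count scaling, with all barcodes, without the deepest cells, with loose gates, in thinned sums, without young pool A and without aged pool B.

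**Figure D5:**
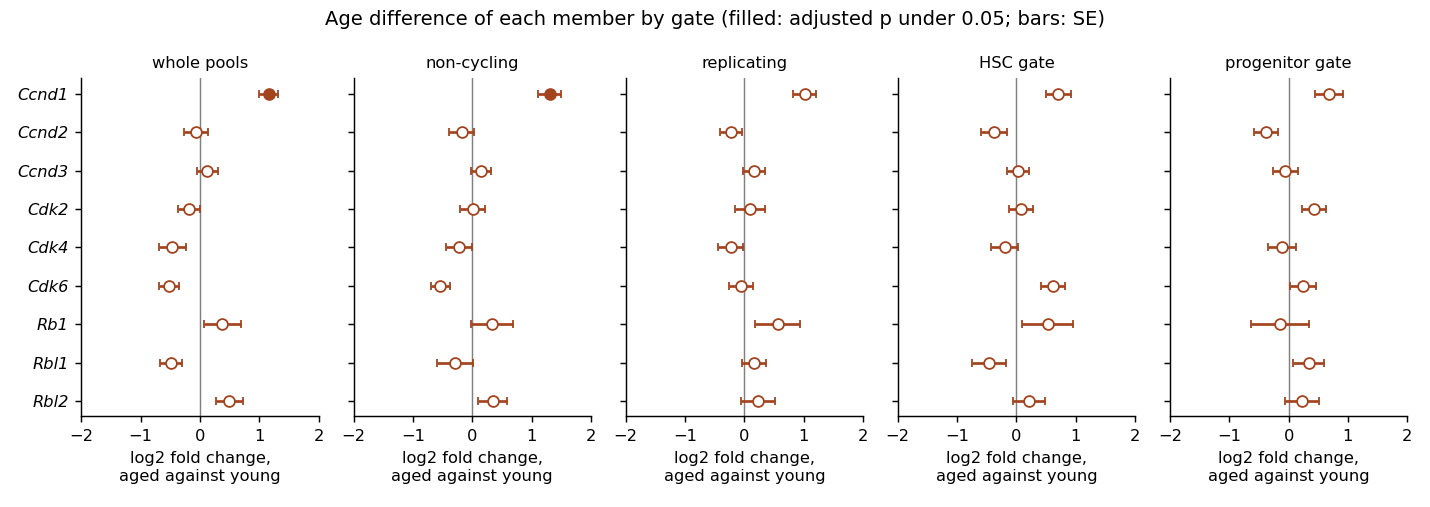
Fitted log2 fold change of each member between aged and young pools with its SE, in whole pools and within 4 gates, with filled points for an adjusted p under 0.05. Ccnd1 lies above 0 in all 5 panels, between 0.69 and 1.30, and passes in whole pools and in non-cycling cells, and Cdk6 is at -0.53 in whole pools and 0.62 in the HSC gate.

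Lastly, the genes most like each member were sought over 16 profiles (4 cycle gates in 4 pools) among 5445 genes with a mean of at least 20 CPM that are in no gate list, by Pearson's correlation of log2 values. The profiles share libraries and the platform difference, so the correlations are descriptions. For Rbl1 the closest gene was Rpa3, a subunit of the single-strand DNA binding complex of replication (r = 0.985), and Rpa3 was also the third closest to Cdk6 (0.942), after Ptma and Adk (both 0.948). Ccnd2 was closest to Aldoc (0.973) and Ccnd1 to Pgm2 (0.956), Gstm5 (0.902) and the glycolytic enzyme gene Pkm (0.884). Cdk4 was closest to Hint1 (0.987), Cdk2 to Hnrnpf (0.980), Ccnd3 to Chchd6 (0.899), Rb1 to Hnrnpa0 (0.976) and Rbl2 to the mitochondrial gene mt-Atp6 (0.976).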

How the data were processed

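UMI counts per gene and barcode were measured in 4 pools of sorted HSPCs. The authors made the deposited counts with Cell Ranger 2.2.0 on GRCm38 (mm10) from 10x 3′ v2 libraries, with an annotation that the sources used here do not name. Cells were kept within 2 SD of their pool's mean log UMI count. No doublet caller was run, and leaving out cells above the 90th percentile of UMIs was an alternative.

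Gates were read from cells thinned to 3000 UMIs, so shallower cells (0 to 176 per pool) have no gate, and all UMIs of gated cells were then summed per pool (at least 10 cells). Sums were tested with edgeR 4.0.16 in R 4.3.3 (quasi-likelihood test, filterByExpr, TMM, adjusted p under 0.05 over all genes tested). The platform letter was the block for age and the pool for gates. The paper ties each letter to 1 platform and 1 batch of mice, and the A minus B differences of young and aged pools correlated at 0.488 over 13555 genes. An SE is the log2 fold change divided by the square root of F. P-values rest on the spread between pools of mixed animals that is left after the block. For gate comparisons this is the spread of the differences within pools. In the mast and lymphoid fits and the neutrophil fit at 12 UMIs, p-values are those of a normal distribution at the printed SE. There the spread is shared over genes, and a gene's own spread over pools has little weight. In the blocked age fits of 4 pools little is left to measure each gene's spread, and edgeR borrows from the other genes. What is left is how far the age difference on platform A departs from that on platform B. Read depth differs along the same contrast, so in the age fits spread between pools and read depth cannot be told apart. Alternatives were DESeq2 1.42.0, no low-count filter, total-count scaling, all barcodes, no deep cells, no block, each pool left out (age fits then have no block, and the lone pool is assumed to vary like the other age), strict and loose gates, thinned sums, no replicating or mitotic cells, and a neutrophil gate at 12 UMIs that was added after seeing the data.

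With known changes put into simulated counts, the age comparison (13350 genes) recovered 88 of 100 4-fold but only 22 of 97 2-fold changes and made 30 false calls, and the replicating comparison (10941 genes) recovered 99 of 99 and 93 of 99 and made 32. The members, lists and gates were chosen with earlier results of these data known. Named are all 9 members, called G1/S genes, and the genes most like each member (3 sought per member). At most 6 called G1/S genes per comparison were to be named, by size of change. Beyond that rule, genes of the less frequent direction were also named in some gate comparisons. Counting intervals and limits cover counting error only.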

Additional observations from a re-analysis of the deposited data

Results flagged for a closer look

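These values are log2 differences of CPM plus 1 within pools. Of 54 differences checked over 4 pools, 2 had 1 pool standing apart from the other three, where chance gives about 1 in 20. Cdk2 rose less from non-cycling to replicating cells in young pool A (0.94) than in the other pools (1.21, 1.20 and 1.18). Rb1 was lower in erythroid-gated than in ungated cells in aged pool A (-0.45) and higher in the others (0.67, 0.75 and 0.70).

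In other cases the pools of 1 age moved one way and those of the other age the opposite way. This rule reads signs only, over the same 54 differences. How often it is met by chance was not worked out, so these cases are not read as effects of age. Between HSC-gated and progenitor-gated cells Rb1 was at -0.27 and -0.11 in young and at 0.26 and 0.79 in aged pools, and the fitted difference between ages of 0.72 did not pass (edgeR adjusted p = 0.672). Between megakaryocyte-gated and ungated cells Rbl1 was at -0.14 and -1.41 in young and at 1.01 and 0.61 in aged pools. This difference of 1.58 was not tested, and Rbl1 had only 73 UMIs in the megakaryocyte gate of the 4 pools together. Between the neutrophil gate at 3 UMIs and ungated cells, the aged minus young differences were 0.13 for Ccnd2, -0.42 for Cdk2 and -0.59 for Cdk6, and none of these differences was tested. Cdk6 was at 0.44 and 0.26 in young and at -0.25 and -0.23 in aged pools in that comparison.

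The age difference in whole pools had opposite signs on the platforms for Cdk2 (0.17 on A and -0.44 on B, a difference of 0.61) and for Rb1 (0.89 on A and -0.17 on B, a difference of 1.06). With 1 pool of each age on a platform, neither was tested. On platform A the aged pool had more reads per cell, and on platform B the young pool had. Read depth, platform and batch of mice thus cannot be told apart in these differences.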

How the results depend on the processing

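Of 464 alternative values of 34 member results that passed the test, 386 passed again, 78 did not, and none changed sign. The causes were not tested. Those that passed again include Cdk6 in the mast gate without aged pool B. That pool was not in the main mast fit, so this value could not change. Without the replicate block, members passing fell to 0 for age in whole pools, 4 for replicating cells (where 1198 of 11075 genes passed), 6 for mitotic cells (1655 of 11036), 5 for the HSC against the progenitor gate (1748 of 10878), 2 for erythroid (1830 of 10687), 0 for megakaryocyte (32 of 10858) and 0 for mast gates (12 of 10746) and 0 for age in non-cycling cells (0 of 11486). The tests of a difference between age effects were not run without the pool as a block. Total-count scaling left 0 members for age in whole pools (74 of 13555 genes passed) and gave 1 for the neutrophil gate (422 of 12033). No low-count filter gave 2 for the neutrophil gate (870 of 18719) and 1 for age in replicating cells. For age in whole pools, leaving out the filter raised the genes passing from 275 of 13555 to 774 of 19025. The megakaryocyte gate was left with 1 member without deep cells, with loose gates, in thinned sums and without replicating and mitotic cells. In these settings 627 of 10420, 549 of 10178, 541 of 9545 and 299 of 10394 genes passed. The mast gate had 3 with strict gates (615 of 11210 genes passed) and 3 with the neutrophil gate at 12 UMIs (861 of 11486). It had 0 with loose gates (37 of 9899), in thinned sums (49 of 9303) and without replicating and mitotic cells (54 of 10497). The neutrophil gate at 12 UMIs had 5 (2774 of 11470 genes passed). Age in non-cycling cells had 0 without deep cells. With loose gates the age difference of Cdk6 between the HSC and progenitor gates passed (1 member, log2 difference 0.58, edgeR adjusted p = 0.0452). For this fit, age in non-cycling cells without deep cells and age in replicating cells without the filter, genes passing are not given. These counts of members thus have no share of all genes to stand beside.

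With each pool left out in turn, 3 to 5 members passed for the erythroid gate, where 3404 to 3984 of 10422 to 10868 genes did. The megakaryocyte gate had 1 to 3 members (808 to 1400 of 10768 to 11085 genes passed). The neutrophil gate had 0 to 2 (83 to 580 of 11793 to 12241). Aged pool B was not in the main mast fit. With another pool left out, that gate had 0 to 1 (61 to 99 of 10614 to 11075 genes). The Ccnd1 calls for age were lost with any pool left out, as given above. Without aged pool B the age difference of Cdk6 was higher by 0.83 in replicating than in non-cycling cells. Without aged pool A it was higher by 0.75 in HSC-gated than in progenitor-gated cells. Age values in whole pools changed sign with 1 pool left out for Ccnd2 (-0.30 to 0.13), Ccnd3 (-0.075 to 0.302), Cdk2 (-0.70 to 0.27), Rb1 (-0.19 to 0.87) and Rbl2 (-0.12 to 1.04). Cdk6 with age in replicating cells went to 0.005 with total-count scaling, to 0.047 with strict gates and to -0.32 to 0.19 with 1 pool left out. Genes passing for age in whole pools were 275, against 543 with DESeq2, 774 without the low-count filter, 74 with total-count scaling, 0 without the block (1103 at an unadjusted p under 0.05 in edgeR) and 0 to 287 with 1 pool left out. Rb1, Rbl1 in the megakaryocyte gate, and the lymphoid and mast gates are limited by few UMIs.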
